A study of Mus musculus with 18 samples.

Results

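The natriuretic peptide system of the mouse heart was followed through 7 genes, chosen by symbol: the peptide genes Nppa, Nppb and Nppc, the processing protease Corin, and the receptors Npr1, Npr2 and Npr3. All 7 were among the 25731 symbols counted, and 6 of them were among the 15088 genes with enough reads to test. Nppc did not pass that filter on low counts. RNA was sequenced from 18 hearts of adult male wild-type C57BL/6 mice of about 20 g, collected 7 days after surgery, 1 library per animal. The 6 IR+Decursin hearts had undergone ischemia-reperfusion, a temporary block of blood flow to the heart muscle followed by its return, and the animals received decursin, a plant coumarin. The 6 IR hearts had ischemia-reperfusion without decursin, and the 6 SHAM hearts had the sham operation. No dose, route or timing of decursin is given in the sources used here. The labels name 3 batches, each holding 1 group, so batch and treatment cannot be told apart in any comparison.

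Nppa encodes atrial natriuretic peptide (ANP) and Nppb encodes B-type natriuretic peptide (BNP), hormones released by cardiomyocytes under stretch and load. In the adult heart Nppa is made mainly in the atria, and both genes are classic markers of stress when they rise in the ventricle. Nppc encodes C-type natriuretic peptide (CNP), which acts locally and is known best from endothelium and growing bone. Corin is a transmembrane serine protease of cardiomyocytes that cuts the ANP precursor into the active hormone. ANP and BNP act on Npr1 and CNP acts on Npr2, receptors whose inner part is a guanylate cyclase that makes cyclic GMP. Npr3 takes up all of these peptides and clears them from the circulation.

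Nppb and Nppa are neighbours in the same direction on chromosome 4, and their start regions are shown because they are the promoters of the peptide genes on which the comparisons below turn. Each is the plus strand from 250 bases before to 50 bases after the RefSeq start, on build GRCm38.p6, read 5′ to 3′. The counts were made on GRCm39, so these positions do not apply to the counting. Nppa lies at chr4:148000472-148000771 and Nppb at chr4:147985650-147985949.
Nppa: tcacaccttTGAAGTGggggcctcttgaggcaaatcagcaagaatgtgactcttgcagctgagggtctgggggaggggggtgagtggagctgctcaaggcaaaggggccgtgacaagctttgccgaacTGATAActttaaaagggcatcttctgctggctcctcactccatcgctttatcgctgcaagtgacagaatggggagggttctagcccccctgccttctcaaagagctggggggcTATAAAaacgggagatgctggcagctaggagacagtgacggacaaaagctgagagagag
Nppb: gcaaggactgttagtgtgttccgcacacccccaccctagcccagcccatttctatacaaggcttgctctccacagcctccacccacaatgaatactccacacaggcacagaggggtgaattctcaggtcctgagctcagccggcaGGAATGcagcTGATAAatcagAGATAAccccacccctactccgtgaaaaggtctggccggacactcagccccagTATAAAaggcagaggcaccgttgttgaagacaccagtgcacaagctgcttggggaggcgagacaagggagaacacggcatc
Capitals mark the matches to 5 short motifs searched on both strands: the GATA-type TGATAA and AGATAA, the NKX2-5-type TNAAGTG, the TEAD-type CATTCC, and TATAAA. None of the marked matches overlap each other. Nppb held TGATAA at -95 to -90, AGATAA at -84 to -79, CATTCC on the minus strand at -105 to -100, where it reads as GGAATG, and TATAAA at -31 to -26 from the start. Nppa held TGATAA at -122 to -117, TNAAGTG at -241 to -235 and TATAAA at -9 to -4. The CArG box, the motif of serum response factor, was searched only in its strict form CCWWWWWWGG, where W is A or T. That form had 0 matches in either window, and looser forms were not searched. Among 32851 promoter windows of the same length, 9.05% held TGATAA, 11.2% AGATAA, 11.5% TNAAGTG, 14.7% CATTCC, 1.63% a CArG box and 13.6% TATAAA. A match is a run of letters and not a measured binding site.

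The libraries held 27525876 to 34974692 counts each. Several stood apart from their groups. Xist, a transcript of female cells, had 14072 to 14232 counts in IR 3, IR 4 and IR+Decursin 2 and at most 8 in the others, and the Y-linked Ddx3y had 0 counts in those 3, against their label as male. Of 8 atrial marker genes, the summed level was 880 CPM (counts scaled to the same library size) in IR+Decursin 6 and 793 CPM in IR 2, against 116 to 204 CPM in the other IR+Decursin hearts, 81.8 to 163 CPM in the other IR hearts and 168 to 273 CPM in SHAM hearts. Of these markers 7 could be tested, and with all 18 hearts and TMM 0 passed in any comparison by edgeR's quasi-likelihood test. Without IR 2 and IR+Decursin 6, hearts set apart by these same markers, 3 of the 7 fell in IR against SHAM, with a list median of -0.62, and 1 fell in IR+Decursin against SHAM, and with all hearts scaled to total counts 1 rose in IR against SHAM. IR+Decursin 6 also had 118 CPM of the collagen gene Col1a1, within the 80.4 to 128 CPM of SHAM hearts, while the IR hearts had 1965 to 2800 CPM. IR+Decursin 5 had 280 CPM, and the other IR+Decursin hearts had 1342 to 2770 CPM. In IR+Decursin 6 the fibroblast gene Postn had 96.1 CPM, the macrophage gene Cd68 15.1 CPM and the myosin gene Myh7 152 CPM. These also lay within the SHAM ranges, 68.3 to 116, 10.1 to 16.6 and 83.6 to 162 CPM. The extent of injury in this heart was not tested. Cardiomyocyte marker genes were lower in IR hearts for 9 of 9, with a median log2 fold change of -0.51 against SHAM, and 8 of 8 macrophage markers and 7 of 8 fibroblast markers rose, the other 1 falling. Markers of the epicardial or mesothelial covering rose for 5 of 6, with a median log2 fold change of 4.405, but at low levels. Their summed level was 4.49 to 35.3 CPM in IR and 2.37 to 4.85 CPM in SHAM, with overlap. Over all genes tested 25.3% were called higher and 21.7% lower in IR against SHAM. Under scaling to total counts 4 of the 9 cardiomyocyte markers fell and 0 rose. The transcript Gm26917 took 7.54% of the counts of IR+Decursin 6 and at most 0.915% of any other library. In such bulk tissue fewer cells of a type and less RNA per cell cannot be told apart.

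Among the 6 tested members Nppa had the largest log2 fold change after injury, and its level scattered widely among injured hearts. It had 535, 139, 421, 299, 329 and 1320 CPM in IR+Decursin hearts 1 to 6. In IR hearts 1 to 6 it had 161, 1347, 833, 482, 349 and 647 CPM, against 202, 365, 210, 158, 184 and 346 CPM in SHAM hearts 1 to 6. Thus 4 of 6 IR hearts lay above every SHAM heart, IR 1 and IR 5 lay within the SHAM range, and IR+Decursin 2 lay below it. The mean was 507 ± 419 CPM in IR+Decursin, 636 ± 419 CPM in IR and 244 ± 88.3 CPM in SHAM (SD, n = 6 each). Nppa rose in IR against SHAM by a log2 fold change of 1.38 ± 0.51 (SE; edgeR quasi-likelihood test, Benjamini-Hochberg adjusted p = 0.0365). Of all genes tested in that comparison 46.9% passed, 25.3% of all tested being higher, and 2 of the 6 tested members did. The call was made in 11 of 18 fits that each left out 1 heart, with adjusted p between 0.0162 and 0.108. The log2 fold change in these fits ran from 1.02 to 1.55. The call was lost without IR 2, where the value was 1.02, and also without IR 3 or IR 6 and without SHAM 1, 3, 4 or 5, where it lay between 1.28 and 1.38. Without the 3 hearts that carried Xist, the log2 fold change was 1.36 with an adjusted p of 0.0626. IR+Decursin against SHAM gave 1.05 ± 0.51 and an adjusted p of 0.133, in a comparison where 29.3% of genes passed and 0 of the 6 tested members did.

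Within a group, Nppa differed between hearts more than most genes did. The SD of its log2 CPM was 1.07 in IR+Decursin, 1.06 in IR and 0.50 in SHAM, while the median gene had 0.25, 0.22 and 0.19 in the same groups. In IR hearts 97.8% of the genes tested had a smaller SD than Nppa, in IR+Decursin hearts 96.3% and in SHAM hearts 83.9%.

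Nppb was higher on average in injured hearts, but the difference did not pass the test. It had 372, 141, 268, 187, 146 and 139 CPM in IR+Decursin hearts 1 to 6. In IR hearts 1 to 6 it had 117, 94.7, 283, 150, 390 and 298 CPM, against 167, 149, 129, 104, 128 and 150 CPM in SHAM hearts 1 to 6. Of the IR hearts 3 lay above every SHAM heart and 1, IR 2, lay below them all. The mean was 209 ± 93.9 CPM in IR+Decursin, 222 ± 119 CPM in IR and 138 ± 22.3 CPM in SHAM (SD, n = 6 each). The log2 fold change of IR against SHAM was 0.69 ± 0.33 with an adjusted p of 0.1001 by edgeR, and that of IR+Decursin against SHAM was 0.60 ± 0.33 with an adjusted p of 0.190. Without IR 2 the IR value was 0.85 and passed, at an adjusted p of 0.0351. This was the only call in 18 fits that each left out 1 heart. In those edgeR fits the value ran from 0.45 to 0.85, with adjusted p up to 0.264. Over 16 other settings Nppb passed in 5, and its value ran from 0.38 to 1.004. It passed under scaling to total counts, at 1.004 (adjusted p = 0.0245), a setting that moves the median of all genes to 0.31. On the log2 FPKM scale, which is also scaled to library totals, it passed in each of 3 settings, at 0.82 with adjusted p between 0.0387 and 0.0457.

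Clcn6, a chloride transporter gene next to Nppa on the chromosome and looked up for that position, averaged 10.5 ± 1.78 CPM in IR+Decursin, 10.05 ± 1.20 CPM in IR and 10.2 ± 0.89 CPM in SHAM (SD, n = 6 each). Its log2 fold change in IR against SHAM was -0.02 ± 0.11 (edgeR adjusted p = 0.878).

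Nppc was close to undetected. Its raw counts were 4, 3, 0, 2, 0 and 0 in IR+Decursin hearts, 1, 1, 1, 5, 7 and 4 in IR hearts, and 0, 1, 1, 1, 1 and 1 in SHAM hearts. Summed over each group these were 9 counts in IR+Decursin (exact 95% Poisson interval 4.12 to 17.1), 19 in IR (11.4 to 29.7) and 5 in SHAM (1.62 to 11.7), and the intervals cover counting error only. The 3 highest IR hearts, 4 to 6, lay above every SHAM heart, and the other IR hearts matched the SHAM count of 1. Fitted without the filter, the log2 fold change of IR against SHAM was 1.43 ± 0.88 with an edgeR adjusted p of 0.255. A change of Nppc was not detectable at this depth.

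**Figure D1:**
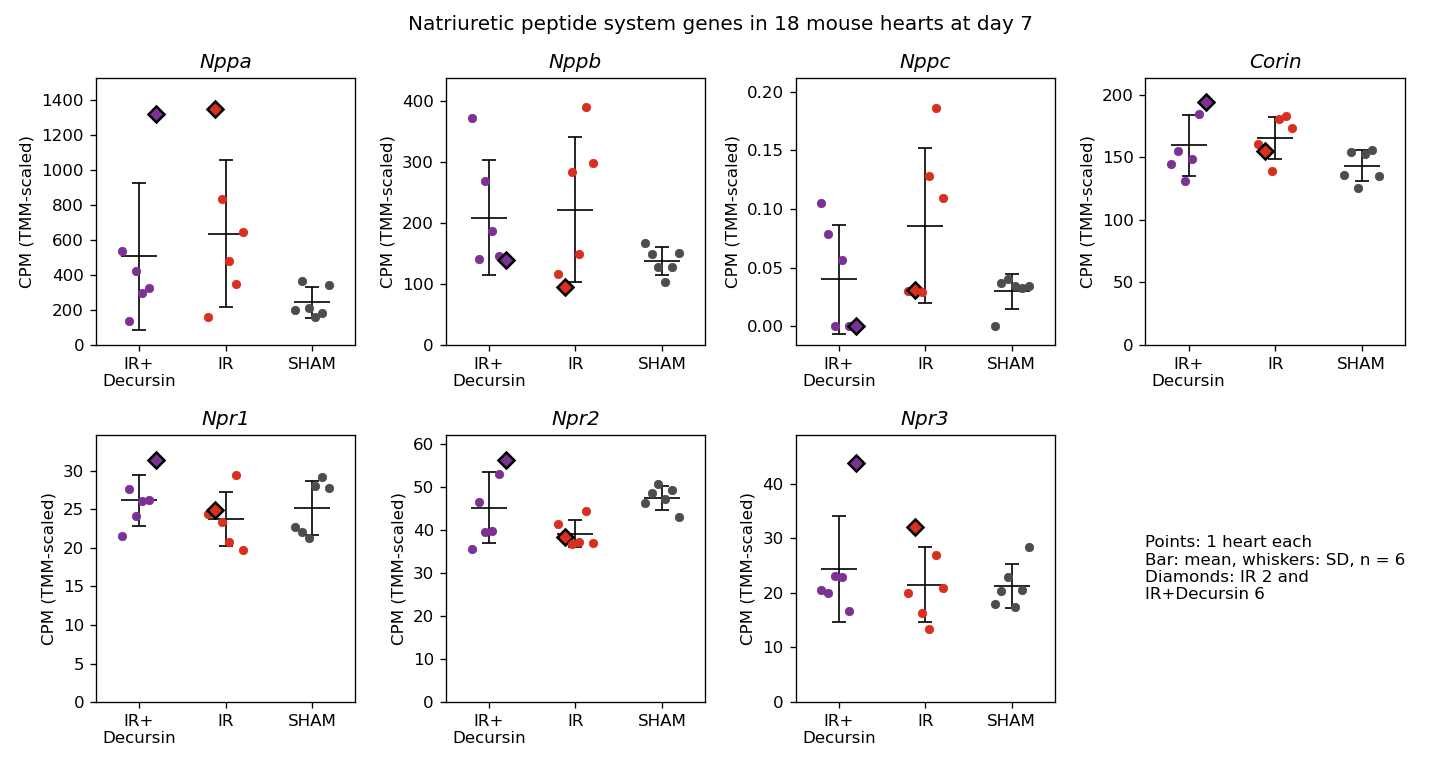
Level of each of the 7 genes in CPM, scaled by TMM factors, with 1 point per heart, a bar at the mean and whiskers of 1 SD (n = 6 per group); diamonds mark IR 2 and IR+Decursin 6. Nppa and Nppb spread widely in both injured groups, IR 2 and IR+Decursin 6 hold the highest Nppa and Npr3 of their groups, and Npr2 lies lower in IR than in SHAM.

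Corin, the ANP-activating protease, was steady beside the peptides. It ranged from 131 to 194 CPM in IR+Decursin with a mean of 160 ± 24.3 CPM, from 139 to 183 CPM in IR with a mean of 165 ± 16.9 CPM, and from 126 to 156 CPM in SHAM with a mean of 143 ± 12.6 CPM (SD, n = 6 each). Of the IR hearts 4 lay above every SHAM heart. The log2 fold change of IR against SHAM was 0.21 ± 0.10 with an edgeR adjusted p of 0.0860, and that of IR+Decursin against SHAM was 0.16 ± 0.10 with an adjusted p of 0.241. Under scaling to total counts, which set the median of all genes to 0.31 in the first comparison and 0.22 in the second, Corin passed in both, at 0.52 (adjusted p = 0.000158) and 0.36 (adjusted p = 0.00583). With TMM and only the IR and SHAM hearts in the fit Corin passed at 0.21 (adjusted p = 0.0462), and without IR 3 at 0.25 (adjusted p = 0.0448).

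Npr2, the CNP receptor, was the only receptor that passed the test, and it fell in IR hearts. It had 35.6, 46.7, 39.6, 39.9, 53.0 and 56.4 CPM in IR+Decursin hearts 1 to 6. In IR hearts 1 to 6 it had 41.5, 38.4, 36.8, 37.2, 44.5 and 37.1 CPM, against 46.3, 48.6, 50.7, 47.2, 49.3 and 43.1 CPM in SHAM hearts 1 to 6. Of the IR hearts 5 lay below every SHAM heart and IR 5 lay within the SHAM range. The IR+Decursin hearts spread across both other groups, with 3 below every SHAM heart and 2 above every one. The log2 fold change of IR against SHAM was -0.28 ± 0.10 (SE; edgeR quasi-likelihood test, adjusted p = 0.0235), in a comparison where 21.7% of genes were called lower. It was called in 18 of 18 fits that left out 1 heart. Without the 3 hearts that carried Xist it was -0.24 with an adjusted p of 0.115. Scaled to total counts it was 0.03 (adjusted p = 0.793), where the median of all genes was 0.31, so the fall is relative to the other genes of the library.

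Npr1, the receptor of ANP and BNP, and Npr3, the clearance receptor, did not pass in any comparison. Npr1 averaged 26.2 ± 3.32 CPM in IR+Decursin, 23.7 ± 3.47 CPM in IR and 25.2 ± 3.52 CPM in SHAM (SD, n = 6 each), and the groups overlapped. Its log2 fold change was -0.08 ± 0.11 in IR against SHAM (edgeR adjusted p = 0.548) and 0.06 ± 0.11 in IR+Decursin against SHAM (adjusted p = 0.740). Npr3 had 20.4, 19.9, 23.0, 22.9, 16.7 and 43.7 CPM in IR+Decursin hearts 1 to 6. In IR hearts 1 to 6 it had 19.9, 32.0, 16.2, 13.3, 26.9 and 20.8 CPM, against 18.0, 20.4, 22.9, 17.4, 20.5 and 28.4 CPM in SHAM hearts 1 to 6. The highest values of the injured groups belonged to IR+Decursin 6 and IR 2, and the rest overlapped SHAM or lay below it. The log2 fold change of Npr3 was 0.02 ± 0.23 in IR against SHAM (adjusted p = 0.961) and 0.20 ± 0.23 in IR+Decursin against SHAM (adjusted p = 0.553). Cells of vessel and chamber lining are known to carry these receptors, and of 8 endothelial markers 0 rose and 2 fell in IR against SHAM, while of 6 endocardial markers 3 rose and 1 fell; scaled to total counts 1 endothelial and 4 endocardial markers rose and 0 of either fell. Of 8 markers of vessel smooth muscle and pericytes 0 rose and 4 fell. Over all genes tested 25.3% were called higher and 21.7% lower in IR against SHAM. The potassium channel gene Kcnj8 had -0.62 (edgeR adjusted p = 0.00344) and the smooth muscle myosin gene Myh11 -0.49 (adjusted p = 0.00603). The 4 that did not pass lay above 0, Tagln at 0.53, Cnn1 at 0.19, Acta2 at 0.16 and Pdgfrb at 0.15. The list median was -0.09. Scaled to total counts 2 of these 8 rose and 0 fell, where 53.5% of all genes passed, 86.9% of them upward. The part of these cells in the receptor values was not tested.

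Levels of different genes were compared per length, as FPKM, which scales counts to gene length and library total. The lengths behind the deposited values were not checked, and the order between genes rests on them. In each group the order by mean FPKM was Nppa, Nppb, Corin, Npr2, Npr1, Npr3 and Nppc. Nppa had mean levels of 572 FPKM in IR+Decursin, 824 FPKM in IR and 250 FPKM in SHAM, and Nppb 183, 202 and 101 FPKM in the same groups. Corin followed with 30.7, 34.1 and 23.9 FPKM. Among the receptors Npr2 had 12.0, 11.1 and 10.9 FPKM, Npr1 6.36, 6.16 and 5.30 FPKM, and Npr3 3.13, 3.003 and 2.40 FPKM. Each neighbouring pair kept this order in 6 of 6 hearts of each group for the first 6 genes. The ranges of neighbours overlapped for Nppa and Nppb in IR+Decursin and in IR, and for no other pair among those 6 genes.

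Decursin after ischemia-reperfusion was compared with ischemia-reperfusion alone. None of the 6 tested members passed, in a comparison where 0 of 15088 genes (0%) passed edgeR's quasi-likelihood test, 2712 (18%) had an unadjusted p under 0.05, and DESeq2 called 417. The log2 fold change of IR+Decursin against IR was -0.33 ± 0.51 for Nppa, with an adjusted p of 0.763 and a 95% interval from -1.40 to 0.74. Nppb had -0.09 ± 0.33, an adjusted p of 0.911 and an interval from -0.79 to 0.61. Both intervals hold a fall as well as a rise. Corin had -0.05 ± 0.10, with an adjusted p of 0.809 and an interval from -0.25 to 0.15.

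Among the receptors, Npr1 had a log2 fold change of 0.14 ± 0.11 in IR+Decursin against IR (edgeR adjusted p = 0.508, 95% interval -0.09 to 0.37) and Npr3 of 0.18 ± 0.23 (adjusted p = 0.699, interval -0.30 to 0.66). Npr2 had 0.20 ± 0.10, an adjusted p of 0.272 and an unadjusted interval from 0.00 to 0.40, with 3 IR+Decursin hearts above every IR heart and 1 below them all. The 3 were hearts 2, 5 and 6, of which 5 and 6 had the lowest Col1a1 of their group, 280 and 118 CPM. A link between Npr2 and Col1a1 was not tested. The placement of these hearts for Npr2 holds for CPM with TMM factors. On FPKM, IR+Decursin 6 had 12.2, below the 12.6 of IR 5. IR+Decursin 1, the heart below all IR hearts in CPM, had 10.4 FPKM, above the 10.3 FPKM of IR 6. Nppc had 9 counts in IR+Decursin and 19 in IR, and an unfiltered log2 fold change of -0.99 ± 0.82 with an adjusted p of 0.549.

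**Figure D2:**
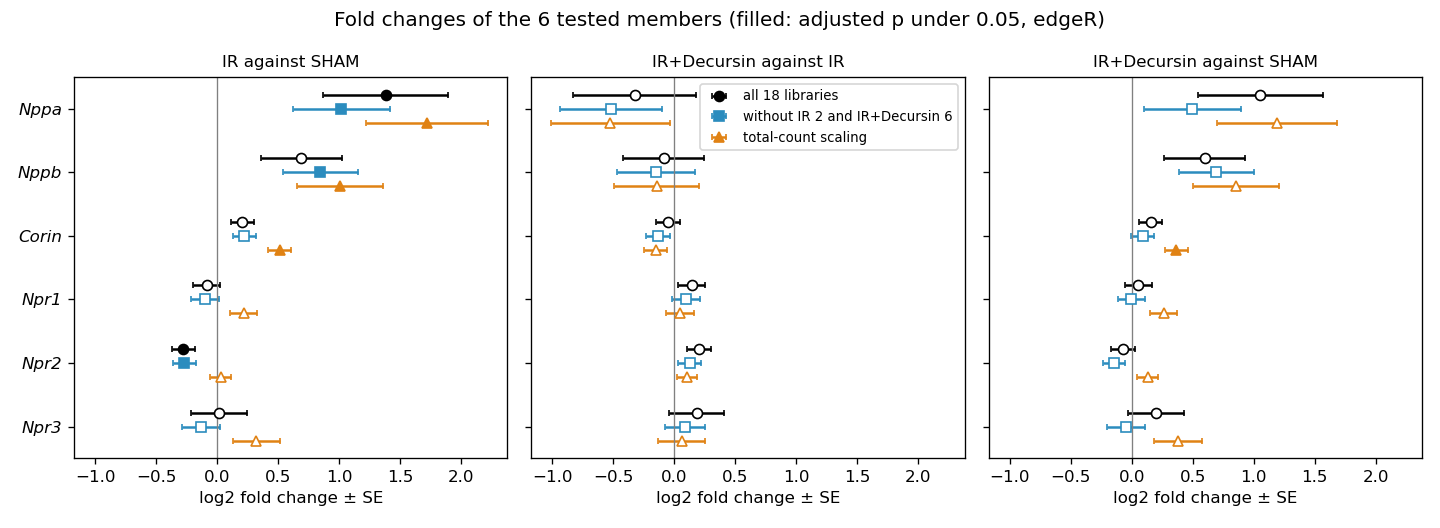
Log2 fold change with its SE for the 6 tested genes in the 3 comparisons, from edgeR fits with all 18 libraries (black), without IR 2 and IR+Decursin 6 (blue) and with scaling to total counts (orange); filled symbols have an adjusted p under 0.05. In IR against SHAM only Nppa and Npr2 are filled with all libraries, no gene is filled in IR+Decursin against IR under these 3 fits, and Npr2 moves to 0.03 under total-count scaling.

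The 2 hearts with the most atrial marker RNA shared a pattern across 3 members. IR 2 and IR+Decursin 6 had the highest Nppa and the highest Npr3 of their groups, and the lowest Nppb. In IR+Decursin 6 Nppb was lowest by a small margin, at 139 CPM against 141 CPM in IR+Decursin 2. The ratio of Nppa to Nppb in FPKM was 13.3 in IR+Decursin 6 and 19.9 in IR 2, against 1.25 to 4.50 in the other 16 hearts. The atrial light chain Myl7 had 251 CPM in IR+Decursin 6 and 215 CPM in IR 2, and sarcolipin (Sln), an atrial calcium pump regulator, 84.9 and 93.9 CPM. Elsewhere Sln was at most 13.7 CPM. In SHAM, hearts 2 and 6 had the highest atrial sum and the highest Nppa, 365 and 346 CPM. IR 3 went the other way, with the lowest atrial sum of all hearts, 81.8 CPM, and the second highest Nppa of its group, 833 CPM. Npr3 and Nppb did not follow the atrial sum in every group. From highest to lowest, SHAM 2 and SHAM 6 ranked 4 and 1 of 6 for Npr3, and 3 and 2 for Nppb. IR 5 and IR+Decursin 1 had the second highest atrial sum of their groups and the highest Nppb. Bmp10, a growth factor of the right atrium, was close to undetected and did not share the pattern of the other atrial genes named here. It was at 0 CPM in every SHAM heart and in IR+Decursin 6, at 0.031 CPM in IR 2, and highest in IR 5, at 0.239 CPM.

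Without IR 2 and IR+Decursin 6, both Nppa and Nppb passed in IR against SHAM. Mean Nppa was then 345 ± 147 CPM in IR+Decursin (n = 5), 494 ± 260 CPM in IR (n = 5) and 244 ± 88.3 CPM in SHAM (SD, n = 6). In IR against SHAM the log2 fold change was 1.02 ± 0.40 for Nppa, with an edgeR adjusted p of 0.0493, and 0.85 ± 0.31 for Nppb, with an adjusted p of 0.0357. Npr2 kept its call there, at -0.27 (adjusted p = 0.0236), so 3 of the 6 tested members passed, in a fit where 45% of all genes did, while Npr3 had -0.13. Against SHAM, IR+Decursin then gave 0.50 for Nppa (adjusted p = 0.363) and 0.69 for Nppb (adjusted p = 0.0977). Against IR it gave -0.52 ± 0.42 for Nppa with an adjusted p of 0.697. With the log2 atrial sum as a covariate over all 18 hearts, the IR against SHAM value was 1.58 ± 0.39 for Nppa (adjusted p = 0.00368) and 0.55 for Nppb (adjusted p = 0.188). Both settings were chosen after seeing the data. What part atrial tissue has in the Nppa values of single hearts was not tested.

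**Figure D3:**
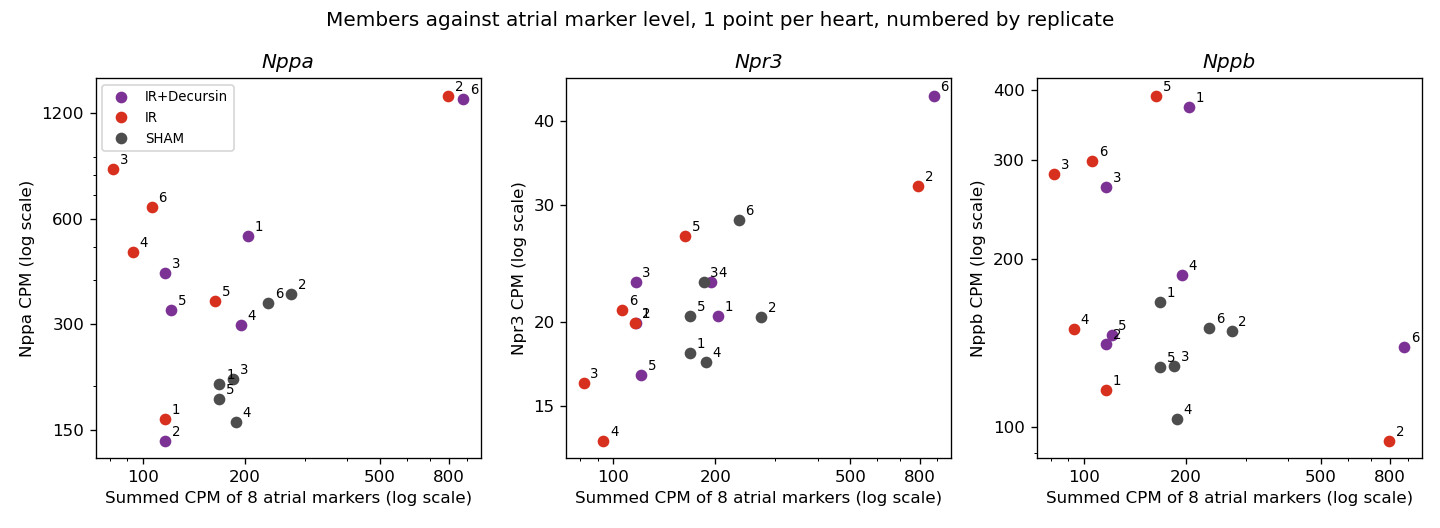
Level of Nppa, Npr3 and Nppb in CPM against the summed CPM of 8 atrial marker genes, both on log scales, with 1 point per heart numbered by replicate. IR 2 and IR+Decursin 6 lie alone at the right, with the highest Nppa and Npr3 of their groups and the lowest Nppb, and IR 3 has high Nppa at the lowest atrial sum.

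Cardiomyocyte markers fell in IR hearts, so the members that cardiomyocytes make were also set against them, as counts per 1000 counts of 9 cardiomyocyte marker genes. The summed level of these markers was 37345 to 57737 CPM in IR+Decursin, 32112 to 43268 CPM in IR and 53747 to 63515 CPM in SHAM. Nppb gave 2.41 to 9.96 in IR+Decursin, 2.83 to 9.29 in IR and 1.90 to 2.65 in SHAM, and IR did not overlap SHAM. Corin gave 2.81 to 3.88 in IR+Decursin, 3.42 to 5.41 in IR and 2.14 to 2.81 in SHAM, and neither injured group overlapped SHAM, although the lowest IR+Decursin heart lay just above the highest SHAM heart. Nppa gave 2.53 to 22.9 in IR+Decursin, 3.97 to 40.3 in IR and 2.90 to 6.15 in SHAM, with overlap. On this ratio 48.3% of all genes lay higher in IR without overlap and 6.48% lay higher in IR+Decursin without overlap, each against SHAM.

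For each tested member the genes with the nearest course over the 18 hearts were found by the root mean square difference of log2 CPM deviations. Nearest to Nppa were Plekha7 (0.64), Sytl2 (0.68) and Gprin3 (0.69), beside an SD of Nppa itself of 0.97. Nearest to Nppb were Tnfrsf12a (0.33), the receptor of TWEAK, then Dubr (0.40) and the homeobox gene Meox1 (0.41), beside an SD of 0.60. Npr3 had Enpp6 (0.23), Pam (0.24), an enzyme that amidates peptides, and Smoc1 (0.25), beside an SD of 0.38. The distance from Nppa to its nearest gene was larger than the whole SD of Nppb.

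Corin had Mtf1 (0.11) and Hdac6 (0.11) among its 3 nearest genes, beside an SD of 0.18. Npr1 had Prrc2b, Shroom4 and Arap3, each at 0.10, beside an SD of 0.19. Npr2 had Tmem259 and Prkag1, a subunit of AMP-activated kinase, among its 3 nearest, each at 0.08, beside an SD of 0.19. These distances describe the 18 libraries, which share depth and group structure, and were not tested.

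Downstream of the receptors, cyclic GMP acts on the kinase Prkg1 and is broken down by phosphodiesterases. A list of cyclic GMP effectors and cyclic nucleotide phosphodiesterases held 14 tested genes. Of these, 4 rose and 1 fell in IR against SHAM, with a median log2 fold change of 0.22, where the median of all genes was -0.00. Over all genes tested 25.3% were called higher and 21.7% lower in that comparison. Vasp, a substrate of the kinase, averaged 40.5 ± 5.54 CPM in IR+Decursin, 46.9 ± 6.81 CPM in IR and 28.2 ± 2.77 CPM in SHAM (SD, n = 6 each), and the IR hearts all lay above the SHAM hearts, as did those of 15.4% of all genes tested. Its log2 fold change in IR against SHAM was 0.74 ± 0.11 (edgeR adjusted p = 1.89e-05). The phosphodiesterases Pde1a (1.21 ± 0.20, adjusted p = 7.65e-05) and Pde3b (0.92 ± 0.19, adjusted p = 0.000557) rose, as did the cyclic GMP-specific Pde5a by 0.66, and Pde1c fell by 0.49 on the log2 scale (adjusted p = 0.00176). Prkg1 itself had 0.48 and did not pass (adjusted p = 0.0874). Scaled to total counts 9 of the 14 rose and 0 fell, where the median of all genes was 0.31. Against the same SHAM hearts, 4 of the 14 rose in IR+Decursin, Pde1a by 0.91, Pde3b by 0.67, Vasp by 0.53 and Pde5a by 0.52, and 0 fell, where 17.5% of all genes were called higher and 11.8% lower.

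Cyclic GMP is also made by other guanylate cyclases, some of them driven by nitric oxide. Of 10 genes for these cyclases and for nitric oxide synthases, 6 could be tested. In IR against SHAM 1 of the 6 fell, Gucy1a2, by 0.34 on the log2 scale (edgeR adjusted p = 0.0435), with a list median of -0.17. Gucy1a1, the major alpha subunit of the soluble cyclase, had 0.45 (adjusted p = 0.0641) and endothelial nitric oxide synthase, Nos3, had -0.24 (adjusted p = 0.106). The call of Gucy1a2 was lost under scaling to total counts, where 2 of the 6 rose and 0 fell, and without the hearts that carried Xist, where 0 passed and Gucy1a2 had -0.32 (adjusted p = 0.115). Over all genes tested 21.7% were called lower with TMM, and 53.5% passed with total counts, 86.9% of them upward. None passed in IR+Decursin against SHAM with all 18 hearts and TMM.

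Of 12 genes for peptide processing and breakdown in the table, 9 could be tested, with a median log2 fold change of 0.07 in IR against SHAM. Galnt2, a glycosyltransferase, rose by 0.55 (edgeR adjusted p = 4.36e-05) and Pcsk6, the convertase that activates corin, fell by 0.44 (adjusted p = 0.0470). Over all genes tested 25.3% were called higher and 21.7% lower. Scaled to total counts 5 of the 9 rose and 0 fell, with a list median of 0.39 where that of all genes was 0.31. In that scaling 53.5% of all genes passed, 86.9% of them upward, and Pcsk6 had -0.13 (adjusted p = 0.508). Without the hearts that carried Xist 2 rose and 0 fell, where 37.9% of all genes passed, while Pcsk6 had -0.47 (adjusted p = 0.0721). Furin had 0.18 (adjusted p = 0.226). Neprilysin, Mme, which degrades natriuretic peptides, had -0.36 (adjusted p = 0.0701). When IR+Decursin was set against SHAM, Galnt2 rose by 0.45 and Ece1, the endothelin-converting enzyme, rose by 0.27, and Pcsk6 had -0.06 (adjusted p = 0.811).

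Of 25 transcription factors and repressors known at the Nppa and Nppb genes, 2 rose and 7 fell in IR against SHAM, with a median log2 fold change of -0.20. The share that fell was near the 21.7% of all genes called lower, and the share that rose was below the 25.3% called higher. The risers were Nfatc4, a calcineurin-driven factor, at 1.10 ± 0.16 (edgeR adjusted p = 2.52e-05) and Rest, a repressor of fetal cardiac genes, at 0.53 ± 0.12 (adjusted p = 0.00140). The 7 that fell were Tead1, Klf15, Tbx2, Myocd, Mef2c, Mef2d and Jarid2, of which Tead1 had -0.57 ± 0.12 (adjusted p = 0.000837) and the anti-hypertrophic factor Klf15 -0.57 ± 0.14 (adjusted p = 0.00177). Gata4 had -0.20 and Nkx2-5 had -0.33, and neither passed. These falls depend on the scaling: with total counts 8 of the 25 rose and 0 fell, and the list median was 0.11 where that of all genes was 0.31. Nfatc4 and Rest rose in both scalings, Tead1 had -0.26 (adjusted p = 0.0601) and Klf15 -0.27 (adjusted p = 0.0682) with total counts. For IR+Decursin against SHAM, Nfatc4 rose by 0.97 and Hdac9 fell by 0.29 on the log2 scale.

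Stress and fetal genes other than the peptides gave a wider range. Of 13 tested, 6 rose and 2 fell in IR against SHAM, with a median of 0.50, where 25.3% of all genes were called higher and 21.7% lower. With total-count scaling 8 rose and 2 fell, where 53.5% of all genes passed, 86.9% of them upward. Myh7, the slow myosin heavy chain of the fetal ventricle, averaged 365 ± 261 CPM in IR+Decursin, 1554 ± 1189 CPM in IR and 118 ± 28.9 CPM in SHAM (SD, n = 6 each). Every IR heart, from 309 CPM upward, lay above the SHAM maximum of 162 CPM, unlike for Nppa. The IR hearts all lay above SHAM for 15.4% of all genes tested. Myh7 rose by 3.71 ± 0.56 in IR against SHAM (edgeR adjusted p = 6.44e-05), and Gdf15, a secreted stress cytokine, by 1.89 ± 0.29 (adjusted p = 3.25e-05). Csrp3, the muscle LIM protein, fell by 0.67 on the log2 scale (adjusted p = 0.000250), as did skeletal actin, Acta1, by 2.04 (adjusted p = 0.00175). Between IR+Decursin and IR 0 of these 13 genes passed, nor did any gene of the other 4 lists, and Myh7 had -2.09 ± 0.52 with an adjusted p of 0.0981.

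**Figure D4:**
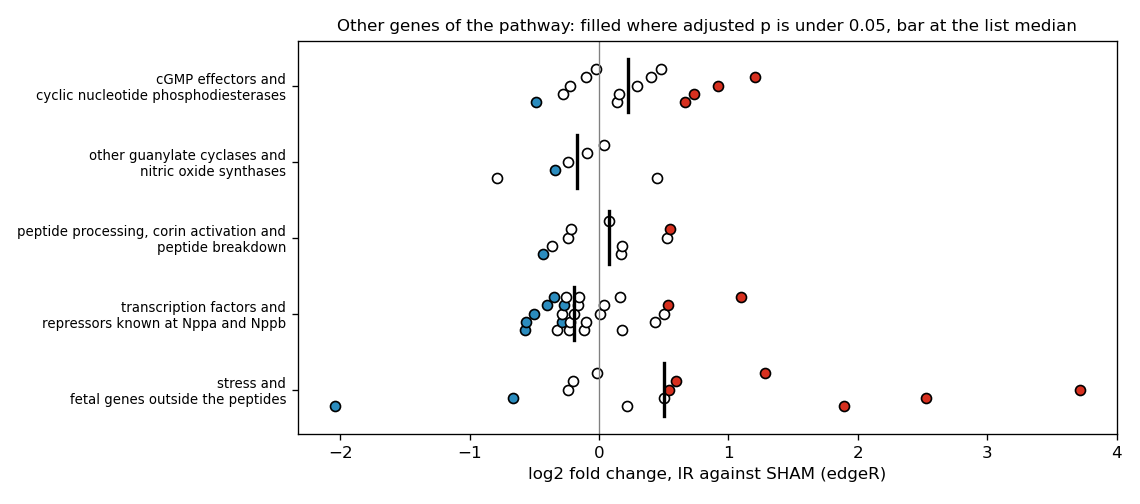
Log2 fold change of IR against SHAM for each tested gene of the 5 lists, 1 point per gene, with a vertical bar at the list median; points are filled, red above 0 and blue below, where the edgeR adjusted p is under 0.05, and vertical offsets within a list only separate points. The stress and fetal genes span the widest range, and the transcription factor list has more filled points below 0 than above it, which total-count scaling reverses.

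Antisense or overlapping gene models on the opposite strand exist for Nppa, Npr1, Npr2, Npr3 and Corin, and no strand setting of the counting is given. Of these models only Gm5144, which overlaps Npr3, was in the table, with 0 to 8 counts per library, against at least 463 counts of Npr3.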

How the data were processed

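Total RNA of 18 hearts was sequenced, 1 library per animal, 6 per group. The authors deposited a table of raw counts for each gene symbol. The submitters' processing notes name fastp, HISAT2, HTSeq and the build GRCm39, with no versions, and no annotation release or strand setting is given in the sources used here. The FPKM values deposited by the authors equal counts divided by library total and by a fixed value per gene. The largest relative deviation was 1.58e-09 over 347198 values, so they carry no further correction for library make-up. The fixed value was taken as the gene length, and no lengths were checked.

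Counts were tested with edgeR 4.0.16 (R 4.3.3) by a quasi-likelihood F-test, two-sided, in 1 fit of all 18 libraries with a mean per group, TMM factors, robust dispersion and genes passing filterByExpr by group. P-values were adjusted by Benjamini-Hochberg over all 15088 genes tested, and genes under 0.05 were called. CPM values carry TMM factors and are mean ± SD, log2 fold changes are ± SE, and the p-values measure the spread between animals. No batch term could be fitted. Alternatives were DESeq2 1.42.0, limma 3.58.1 (voom, and log2 of FPKM plus 1 or 0.1), total-count scaling, other filters, a replicate block, and leaving out libraries. On simulated data for IR against SHAM, the fit recovered 85.5% of 200 genes changed by a log2 value of 1 among 14933 genes. It also called 9 unchanged genes. The changed genes were drawn from genes with more counts, and far fewer genes changed than the 46.9% called in the data. The 85.5% is therefore no measure of power for single members.

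The members and the gene lists were chosen with earlier results of these data known. Per list, up to 4 genes with the smallest adjusted p in IR against SHAM are named. Small groups of called genes, and Prkg1, Furin, Gata4, Nkx2-5 and Clcn6 are named besides, with their values seen. Promoter sequences are from RefSeq on GRCm38.p6, which matched all 7 symbols. No protein sequences were used here, and 2 of the genes nearest in course to a member are not reported here.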

Additional observations from a re-analysis of the deposited data

Results flagged for a closer look

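Npr3 in IR+Decursin 6 had 43.7 CPM, far from the next highest IR+Decursin heart at 23.0 CPM. The gap took a share of 0.670 of the range of its group. This flag was set on CPM with TMM factors only. On FPKM the group ran from 2.20 to 4.63, with IR+Decursin 6 highest and the next heart at 3.16. Markers of atrial tissue were also highest in IR+Decursin 6, at a sum of 880 CPM, and their part in the Npr3 value was not tested.

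Nppc in SHAM 1 had 0 CPM, apart from the other SHAM hearts, of which the nearest had 0.0326 CPM. That is a difference of 0 against 1 raw count, so it is within counting error. Of 21 gene and group combinations examined for single distant hearts, 2 stood out, and chance gives about 1 in 20.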

How the results depend on the processing

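Of the 6 tested members, 2 passed in IR against SHAM, where 46.9% of all genes did. That count was 1 without the filter on low counts (Nppa 1.39, adjusted p = 0.0651; 26.9% of all genes), 0 without the 3 hearts that carried Xist (37.9%), and 1 to 2 when single hearts were left out. It was 3 under total-count scaling (53.5%) and under each of 3 settings on FPKM (53.2% to 58.2%), where Nppa, Nppb and Corin passed, and with only the compared groups (48.4%), where Corin was added. Between IR+Decursin and SHAM 0 passed, against 1, Corin, under total-count scaling and under each of 3 settings on FPKM. Between IR+Decursin and IR the number of all genes called was 0, against 417 with DESeq2 and 0 to 976 when single hearts were left out, the 976 without IR+Decursin 1; 0 members passed in any of these fits. In IR against SHAM Npr1 turned to 0.22 under total-count scaling, to 0.19 on FPKM plus 1 with either filter and to 0.22 on FPKM plus 0.1, and Npr2 to 0.029, 0.027 and 0.029 in the same order. In IR against SHAM the median of all genes was 0.31 with total-count scaling and 0.17 to 0.27 on FPKM, and the share of calls that were upward was 86.9% with total-count scaling and 84.7% to 86.3% on FPKM, against 53.8% with TMM. In IR+Decursin against SHAM that share was 92.7% with total-count scaling and 90.3% to 91.6% on FPKM, against 59.9% with TMM. In IR+Decursin against SHAM Npr2 turned to 0.13, 0.12 and 0.13 in the same settings. Without IR 2 and IR+Decursin 6 Npr3 turned to -0.13 in IR against SHAM and to -0.046 in IR+Decursin against SHAM, where Npr1 turned to -0.0033. In IR+Decursin against IR Nppb turned to 0.16 with voom and to 0.036 with the atrial covariate. With single hearts left out, Npr3 spanned -0.13 to 0.12 in IR against SHAM, -0.062 to 0.33 in IR+Decursin against IR and -0.047 to 0.30 in IR+Decursin against SHAM. Likewise Nppb spanned -0.33 to 0.15 and Nppa -0.88 to 0.038 in IR+Decursin against IR, and Npr1 -0.0038 to 0.10 in IR+Decursin against SHAM. The cause of these turns was not tested. Lists were refitted under total-count scaling and without the libraries that stood apart, settings chosen for them after seeing the data. The replicate block gave 3, 0 and 0 members called in the 3 comparisons, Corin being added in IR against SHAM at 0.20 (adjusted p = 0.0471). Equal numbers did not pair the hearts: correlations of their deviations ran from -0.40 to 0.31, 3 of 18 pairs were above 0.1, and 3 of 18 libraries correlated best with their own number.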
